A study of Mus musculus with 4 samples.

Results

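Interferon-inducible GTPases of the guanylate-binding protein (GBP) and immunity-related GTPase (IRG) families were followed here in the mouse amygdala after a systemic bacterial stimulus. The members were 8 genes: the GBPs Gbp2, Gbp3, Gbp4 and Gbp6, the regulatory IRGs Irgm1 and Igtp, and the IRGs Iigp1 and Ifi47. They were found by gene name, or by an older name carrying the same RefSeq entry, and were represented by 10 of the 41174 probes on the array. All 8 passed the filter on dim probes and were among the 19103 genes of the fit. Gbp6 passed only through its LPS groups, so a rise after LPS was in part built into its selection.

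The study crossed genotype with treatment to ask how loss of the P2X7 receptor (gene P2rx7), a channel that ATP opens, alters amygdala gene expression with and without an immune challenge. Male C57BL/6J mice aged 10 weeks, wild type or P2X7R -/-, were injected intraperitoneally with sterile saline or with lipopolysaccharide (LPS, a bacterial outer membrane component sensed by Toll-like receptor 4), and whole amygdala was taken 6 h later. The LPS dose is given in the labels both as 7.5 µg per mouse and as 250 µg/kg. Each of the 4 groups had 4 mice and 4 arrays, 16 arrays in all. The groups were wild-type saline, wild-type LPS, knockout saline and knockout LPS. The receptor was missing from the whole animal, and how the knockout allele was made is not given in the sources used here. Which mouse each array came from is not labelled, so p-values here reflect array-to-array spread, which may be in part technical.

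GBPs are large GTPases of the dynamin type, and IRGs are smaller GTPases; both families are scarce in resting cells and are made in quantity after interferon signalling. They gather on bacterial membranes and on the vacuoles of intracellular parasites and help to break them open, and GBPs also bring cytosolic LPS to the inflammatory caspases. Type I interferons act at the interferon-stimulated response element (ISRE) through a factor that contains STAT2 and IRF9, and interferon gamma acts at the gamma-activated sequence (GAS).

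The promoters of the members are shown because the genes moved together on the arrays and because these elements are the textbook entry points of interferon into the family. RefSeq promoter windows (GRCm38.p6) were found for 5 of the 8 members, and none was found for Gbp4, Gbp6 and Iigp1. The 250 bases before each start were searched on both strands for the ISRE core, written as GAAA, any 2 bases and GAAA again, and for the GAS letters TTCNNNGAA. The last 100 bases before the start are given 5′ to 3′ on the gene's strand, with letters that match either motif in capitals. They lie at chr3:142620563-142620662 (Gbp2, plus strand), chr3:142559944-142560043 (Gbp3, plus), chr11:48871421-48871520 (Irgm1, minus), chr11:58199456-58199555 (Igtp, plus) and chr11:49076487-49076586 (Ifi47, plus). Irgm2 at chr11:58214877-58214976 (plus) and Tgtp1 at chr11:48992247-48992346 (minus) are relatives of the members and are shown for the arrangement they share with Igtp.
Gbp2: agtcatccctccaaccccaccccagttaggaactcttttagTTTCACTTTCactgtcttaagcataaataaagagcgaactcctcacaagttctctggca
Gbp3: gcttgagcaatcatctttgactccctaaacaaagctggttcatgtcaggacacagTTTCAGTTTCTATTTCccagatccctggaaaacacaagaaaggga
Irgm1: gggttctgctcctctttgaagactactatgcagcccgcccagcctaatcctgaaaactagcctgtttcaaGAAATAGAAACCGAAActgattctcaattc
Igtp: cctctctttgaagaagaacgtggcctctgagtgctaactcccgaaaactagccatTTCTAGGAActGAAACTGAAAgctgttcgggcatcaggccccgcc
Ifi47: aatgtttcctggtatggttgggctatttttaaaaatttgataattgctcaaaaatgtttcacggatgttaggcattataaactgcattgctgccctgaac
Irgm2: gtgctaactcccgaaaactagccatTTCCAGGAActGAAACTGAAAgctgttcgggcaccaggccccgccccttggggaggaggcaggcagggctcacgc
Tgtp1: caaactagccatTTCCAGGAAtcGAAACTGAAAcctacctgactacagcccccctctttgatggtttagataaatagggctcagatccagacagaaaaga

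The ISRE core was present in 4 of the 5 members with a window, Gbp2, Gbp3, Irgm1 and Igtp, against 978 of all 32851 promoters in the table (2.98%). In Gbp2 the match was on the opposite strand, 59 to 50 bases before the start. Gbp3 held 2 overlapping copies between 45 and 30 bases before its first listed start, and none at its second listed start. Irgm1 also held 2 overlapping copies, between 30 and 15 bases before the start. Igtp had the GAS letters TTCTAGGAA followed after 2 bases by an ISRE core, 45 to 25 bases before the start. The same order and the same gap of 2 bases were found in Irgm2 and Tgtp1, and in Tgtp2, which is not printed. Among the other relatives with a window, Gbp5, Gbp7 and Gm12250 held both motifs at other spacings. Gbp2b held an ISRE core alone, and Irgq held neither motif. The GAS letters alone were present in 7.02% of all promoters and both motifs in 0.332%. Ifi47 held neither in this window. A match describes the letters only, and binding was not measured.

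Each array held Cy3-labelled cRNA. Across arrays the processed intensity had a 75th percentile of 346 to 1165, 58.1% to 71.9% of probes lay well above background, and no spot was saturated. The number of arrays limits the precision. The wild-type arrays filled slides 1 and 2, read in the first scan session, and the knockout arrays filled slides 3 and 4, read in the second, so genotype and slide or scan session cannot be told apart. The brightest P2rx7 probe read -1.69 to -0.80 in knockout and -0.15 to 0.90 in wild type, on the log2 scale with each array's 75th percentile set at 0, as for every level below. The other kept P2rx7 probe was dimmer and did not separate the genotypes, at 0.24 ± 0.29 between them after saline (limma adjusted p = 0.51, over probes) and 0.06 ± 0.29 after LPS (0.875). Which part of the gene the knockout removes is not given in the sources used here. Markers of neurons and of astrocytes were well above background on every array, as were 5 of 6 markers of amygdala and basal forebrain neurons, while Crh was not measured here under that name.

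The arrays labelled wild-type saline replicates 1 and 2 went against their label. Both lie on slide 1, and the mean level of the 8 members was 1.63 and 1.61 on them. Wild-type saline replicates 3 and 4, which lie on slide 2, averaged -2.62 and -2.70. The 4 wild-type LPS arrays read 0.55, 2.09, 1.86 and 1.05, so replicates 1 and 2 sat among the LPS arrays and not beside the other saline arrays. The pairs also differed on markers of neighbouring tissue. Over hippocampal markers replicates 3 and 4 averaged -0.90 and -0.72, the highest of the 16 arrays, against -2.78 and -2.57 for replicates 1 and 2. Over choroid plexus markers they averaged -0.92 and -0.67, against -4.16 and -3.48, while wild-type LPS replicates 1 and 3 read -0.76 and -0.75. The part of these differences in the results was not tested, and each result that rests on replicates 1 and 2 is given with and without them. Since these arrays were picked out by the members' own levels, fits without them only describe the members.

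**Figure D1:**
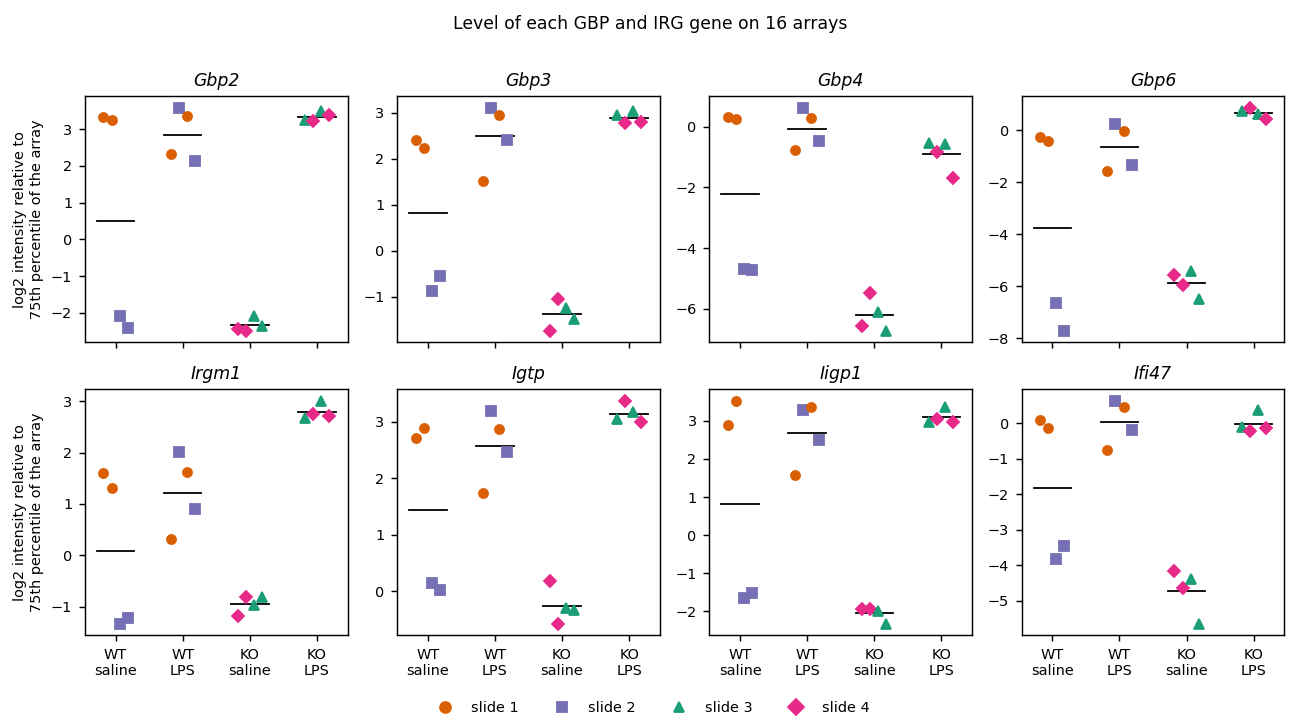
Level of each member on each of the 16 arrays, on the log2 scale with the 75th percentile of each array at 0, with points for arrays and bars for group means. Knockout saline and knockout LPS arrays separate for every member, while wild-type saline replicates 1 and 2 sit near the LPS arrays.

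In the knockout amygdala LPS raised all 8 members, the GBPs and both kinds of IRG alike. The rises in level ran from 10.6-fold for Igtp to 50.8-fold for Gbp2 among the members measured on both sides, and the LPS and saline arrays did not overlap for any member. By limma over all genes, with a Benjamini-Hochberg adjusted p under 0.05 as the threshold, 8 of 8 members rose, where 2.53% of all genes did. The groups were without overlap and higher after LPS for 8 of 8 members and for 5.15% of all genes. Gbp6 is in both counts though it passed the filter only through its LPS groups, so its own rise adds no support. The median difference of the members was 4.91 on the log2 scale, or 4.48 with Gbp4 and Gbp6 set at their lower bounds, beside -0.09 over all genes. In bulk tissue, more cells of a responding type and more RNA per cell cannot be told apart.

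Among the GBPs, Gbp2 promotes the rupture of pathogen vacuoles and the exposure of bacterial LPS. Its probe lies at chr3:142300719-142300778 (plus strand; all probe positions are on mm9). In knockout saline it read -2.44, -2.49, -2.07 and -2.34, and in knockout LPS 3.24, 3.21, 3.48 and 3.38. In processed intensity the same arrays ran from 68.3 to 138 after saline and from 3554 to 5804 after LPS. The difference was 5.67 ± 1.03 (log2 ± SE, n = 4 per group; limma adjusted p = 0.00543). The error is that of a model that pools the 4 groups, and the SDs of the knockout groups themselves were 0.19 after saline and 0.12 after LPS.

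Gbp3 lies in the same cluster on chromosome 3, with its probe at chr3:142236072-142236131 (plus). Its knockout levels were -1.75, -1.05, -1.24 and -1.49 after saline and 2.95, 2.77, 3.03 and 2.79 after LPS. This was a rise of 4.26 ± 0.61 (limma adjusted p = 0.00193), or 19.2-fold.

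Gbp4 and Gbp6 belong to the cluster on chromosome 5, with probes at chr5:105547080-105547139 and chr5:105700081-105700140 (both minus). The array lists the Gbp6 probe under the older name Mpa2l. The knockout saline arrays were all below the background threshold for both probes, so their saline levels are upper limits. After LPS the 4 knockout arrays read -0.55, -0.82, -0.56 and -1.70 for Gbp4. For Gbp6 they read 0.74, 0.87, 0.61 and 0.44. Both genes went from a signal not well above background to a clear one on every knockout LPS array. Gbp4 was at least 16.2-fold higher (fitted difference 5.31 ± 0.96, limma adjusted p = 0.00522) and Gbp6 at least 48.1-fold higher (6.53 ± 1.28, limma adjusted p = 0.00835). Such a bound compares the bright arrays' mean with a floor. The floor is the mean, over the dim arrays, of the higher of 2 signals, the probe's own and the lowest among probes well above background.

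Of the regulatory IRGs, Irgm1 keeps effector IRGs off the cell's own membranes, and its loss impairs autophagy and host defence. It was read by 3 probes, of which the probe at chr11:48679069-48679128 (minus) is used throughout. Its knockout levels were -1.18, -0.81, -0.96 and -0.81 after saline and 2.67, 2.76, 3.02 and 2.72 after LPS. The difference was 3.73 ± 0.56 (limma adjusted p = 0.00225), or 13.3-fold. The probe at chr11:48679419-48679478 gave 4.02 ± 0.79 (limma adjusted p = 0.00976, over probes). The remaining probe, at chr11:48676211-48676270, was not well above background on any of the 16 arrays.

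Igtp, also called Irgm3, is the other regulatory IRG here and sits on the endoplasmic reticulum and lipid droplets. Its probe lies at chr11:58020927-58020986 (plus). The knockout levels were 0.18, -0.58, -0.30 and -0.33 after saline and 3.05, 3.38, 3.17 and 3.002 after LPS. It had the smallest fitted rise of the 8, 3.40 ± 0.55 (limma adjusted p = 0.00292).

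Iigp1, also called Irga6, is the effector IRG that loads onto parasite vacuoles in its GTP-bound form. Its probe lies at chr18:60552153-60552212 (plus). Knockout saline arrays read -1.94, -1.93, -1.999 and -2.34, and knockout LPS arrays 2.97, 3.05, 3.36 and 2.97. The difference was 5.14 ± 0.91 (limma adjusted p = 0.0047), or 35.2-fold.

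Ifi47, also called Irgd, has its probe at chr11:48910173-48910232 (plus). It read -4.15, -4.65, -4.38 and -5.65 after saline, with 3 of those 4 arrays well above background, and -0.11, -0.23, 0.38 and -0.13 after LPS. The difference was 4.69 ± 0.72 (limma adjusted p = 0.00241), or 25.8-fold. Ifi47 is the member whose promoter window, printed above, held neither motif.

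Without the arrays labelled wild-type saline replicates 1 and 2, which enter this comparison only through the pooled error, 8 of 8 members rose (3.17% of all genes). The rise in knockout was also present on each slide taken alone. On slide 3, 8 of 8 members rose (2.99% of all genes), and on slide 4 again 8 of 8 (0.864%). Gbp2 differed by 5.57 on slide 3 and 5.77 on slide 4, Iigp1 by 5.33 and 4.95, and Irgm1 by 3.73 on both. The background treatment mattered for the dimmest members. With normexp correction of the mean signals in place of the deposited processed signal, 5 of 8 rose (0.979% of all genes) and the calls of Gbp4 (0.96, limma adjusted p = 0.26), Gbp6 (2.43, 0.0581) and Ifi47 (1.93, 0.0581) were lost. That setting also moved the share of calls that were higher over all genes from 69.0% to 44.8%, and the median over all genes from -0.09 to -0.22.

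**Figure D2:**
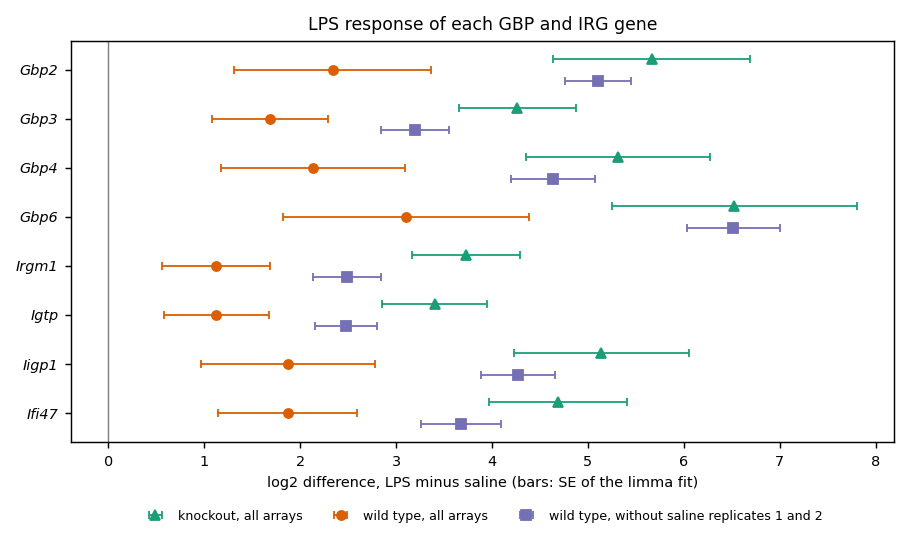
LPS minus saline (log2 difference, error bars ± SE of the model) for each member in knockout, in wild type, and in wild type without saline replicates 1 and 2. Gbp4 and Gbp6 in knockout, and Gbp6 in wild type without the 2 arrays, are drawn at fitted values that rest on saline arrays not well above background. The other members lie between 3.40 and 5.67 in knockout and between 2.48 and 5.11 in wild type without the 2 arrays.

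**Figure D3:**
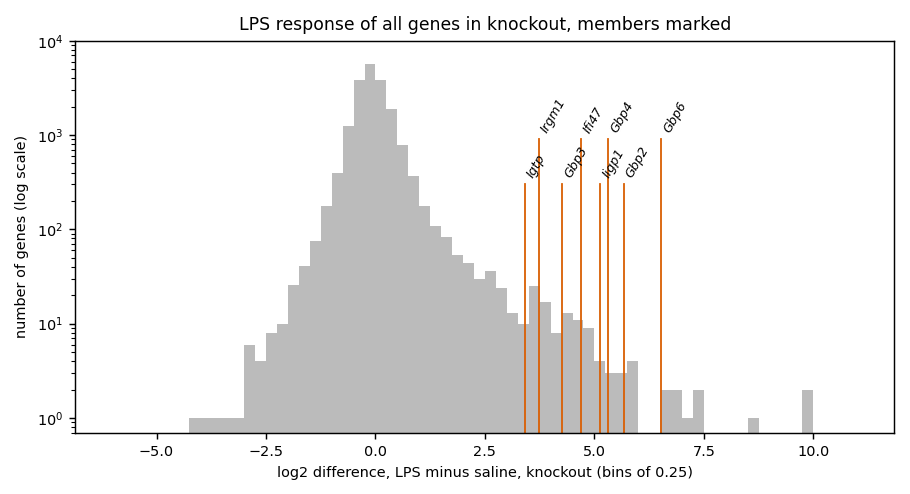
Distribution of the LPS difference in knockout (log2, horizontal axis) over the 19103 genes of the fit, with the 8 members marked. The median over all genes is -0.09, the 6 members measured on both sides lie between 3.40 and 5.67, and Gbp4 and Gbp6 are drawn at their fitted values, which rest on saline arrays not well above background.

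In wild type all 8 members had higher mean levels after LPS, but none passed the test while the arrays labelled wild-type saline replicates 1 and 2 were included. The differences ran from 1.12 for Igtp and Irgm1 to 3.10 for Gbp6, of whose saline arrays 2 of 4 were well above background, with a median of 1.87 beside -0.04 over all genes. By limma 0 of 8 were called, as were 0.0105% of all genes in either direction. At an unadjusted p under 0.05 there were 5 of 8 members and 6.62% of all genes. The saline and LPS arrays overlapped for every member, and 1.95% of all genes were higher without overlap.

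The overlap came from the saline side. Gbp2 read 3.32, 3.24, -2.09 and -2.42 on wild-type saline replicates 1 to 4 and 2.33, 3.58, 3.36 and 2.12 on the LPS arrays. Its difference was 2.34 ± 1.03 (limma adjusted p = 0.722). Gbp3 read 2.40, 2.24, -0.87 and -0.54 after saline and 1.51, 3.11, 2.95 and 2.41 after LPS. For both genes saline replicates 1 and 2 lay within the range of the LPS arrays, and replicates 3 and 4 below it.

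Gbp4 and Gbp6 gave the same picture close to the background. Gbp4 read 0.32, 0.25, -4.70 and -4.73 after saline and -0.78, 0.63, 0.29 and -0.46 after LPS. Gbp6 read -0.28, -0.43, -6.64 and -7.73 after saline, where replicates 3 and 4 were not well above background, and -1.57, 0.25, -0.02 and -1.32 after LPS. Neither difference passed the test, at 2.13 ± 0.96 for Gbp4 (limma adjusted p = 0.728) and 3.10 ± 1.28 for Gbp6 (0.693).

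The IRGs split in the same way. Irgm1 read 1.61, 1.31, -1.34 and -1.21 after saline and 0.31, 2.02, 1.63 and 0.90 after LPS. Igtp read 2.71, 2.89, 0.15 and 0.03 after saline and 1.75, 3.20, 2.87 and 2.46 after LPS. For both regulators the saline replicates 1 and 2 were within the LPS range. Iigp1 read 2.88, 3.53, -1.65 and -1.53 after saline and 1.58, 3.28, 3.35 and 2.503 after LPS. Ifi47 read 0.10, -0.15, -3.82 and -3.47 after saline and -0.75, 0.63, 0.46 and -0.20 after LPS. Saline replicate 2 was the highest of all wild-type arrays for Iigp1, at 3.53. The differences were 1.12 ± 0.56 for Irgm1, 1.12 ± 0.55 for Igtp, 1.87 ± 0.91 for Iigp1 and 1.87 ± 0.72 for Ifi47 (limma adjusted p = 0.664 to 0.759).

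Without those 2 arrays, a choice made after the data were seen, 8 of 8 members rose in wild type (1.93% of all genes), with 2 saline arrays left, both on slide 2. The 2 arrays were picked out by the members' own high levels, so this count and the p-values that follow do not test the rise. Gbp2 was then higher by 5.11 ± 0.35 (limma adjusted p = 3.22e-06), Gbp3 by 3.20 ± 0.36 (0.000135) and Gbp4 by 4.63 ± 0.44 (3e-05). Gbp6 was at least 34.6-fold higher. The IRGs rose by 2.49 ± 0.35 for Irgm1, 2.48 ± 0.33 for Igtp, 4.27 ± 0.38 for Iigp1 and 3.68 ± 0.42 for Ifi47 (limma adjusted p = 0.00109 or lower). The median was 3.97, beside -0.10 over all genes.

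Taken slide by slide, slide 1 gave no rise: 0 of 8 were called (0.00524% of all genes higher), and the differences ran from -0.74 for Iigp1 to -0.09 for Gbp3 (limma adjusted p = 0.797 to 0.974). On slide 2, 7 of 8 rose (0.958% of all genes). Gbp6 was among them from saline arrays not well above background, the other 6 ranged from 2.74 for Igtp to 5.11 for Gbp2, and Irgm1 at 2.74 did not pass (limma adjusted p = 0.0706).

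**Figure D4:**
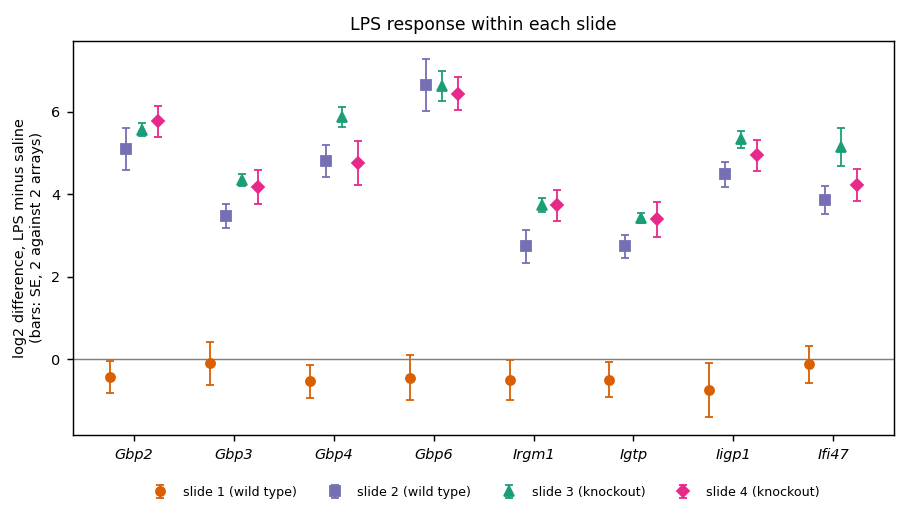
LPS minus saline for each member (log2 difference) computed within each of the 4 slides, 2 saline and 2 LPS arrays per slide. Slides 2, 3 and 4 lie at 2.74 or higher for every member, and slide 1 lies between -0.74 and -0.09.

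After saline, the knockout was lower than wild type for 6 of the 8 members, read against a background in which 22.2% of all genes were lower and 50.9% differed in either direction. The differences were -2.85 ± 1.03 for Gbp2 (limma adjusted p = 0.0304), -2.19 ± 0.61 for Gbp3 (0.00759) and -2.88 ± 0.72 for Ifi47 (0.00412). They were -1.70 ± 0.55 for Igtp (0.0173) and -2.86 ± 0.91 for Iigp1 (0.0166). Gbp4 was at least 6.54-fold lower in knockout (fitted difference -4.01 ± 0.96, limma adjusted p = 0.00293). Gbp6 (-2.09 ± 1.28, 0.184) and Irgm1 (-1.03 ± 0.56, 0.137) did not pass, although the second measurable Irgm1 probe did, at -2.33 ± 0.79 (adjusted over probes, 0.0223). Groups did not overlap for 4 of the 8, Gbp3, Gbp4, Ifi47 and Iigp1, where 20.2% of all genes were lower without overlap. Under normexp 3 members were called lower, Gbp3, Igtp and Iigp1, as were 16.7% of all genes, and the Gbp4 difference was 0.014, while the share of all calls that were higher in knockout moved from 56.3% to 72.7% and the median over all genes from 0.07 to 0.43.

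Most of these calls rested on the arrays labelled wild-type saline replicates 1 and 2. Leaving out replicate 1 left 3 calls, where 44.3% of all genes differed in either direction, and leaving out replicate 2 also left 3 (43.9%). Leaving out both left 2, where 35.7% of all genes differed. Gbp4 was one of them, with a difference of -1.51 ± 0.44 (limma adjusted p = 0.0171) and a bound of at least 1.15-fold lower in knockout. The other was Gbp6, which turned sign to 1.32 ± 0.48 (limma adjusted p = 0.0469) but was not well above background on any of those saline arrays in either genotype, so it has no measured difference. The remaining differences were -0.08 for Gbp2, -0.68 for Gbp3, -1.07 for Ifi47, -0.35 for Igtp, -0.46 for Iigp1 and 0.34 for Irgm1, and none passed.

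Markers of cell types and regions moved between the same saline groups. In knockout 5 of 6 oligodendrocyte markers were lower (median -1.55), as were 3 of 4 tested hippocampal markers (median -1.27), and 3 of 3 tested T and NK cell markers were higher (median 1.26). Over all genes 22.2% were lower and 50.9% differed in either direction. Of 6 neuronal markers 2 were higher and 3 lower, and of 6 astrocyte markers 2 were higher and 2 lower. Cd4, among the T and NK cell markers, was not well above background on any wild-type array. It passed the filter only through the knockout groups, so its higher level there was in part built into its selection. The hippocampal marker Dsp passed only through wild-type LPS and was not well above background on any knockout array. A lower level of Dsp in knockout was thus in part built into its selection. Without wild-type saline replicates 1 and 2 the oligodendrocyte, hippocampal and T and NK cell counts were 5 of 6, 4 of 4 and 3 of 3, where 35.7% of all genes differed in either direction. The mean over oligodendrocyte markers ran from 2.35 to 3.51 on wild-type saline arrays and from 1.62 to 2.04 on knockout saline arrays. The part of these markers in the members' differences was not tested.

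After LPS, 1 of 8 members differed between the genotypes, Irgm1, which was higher in knockout by 1.58 ± 0.56 (limma adjusted p = 0.0309), where 26.0% of all genes were higher and 47.2% differed in either direction. The 4 knockout LPS arrays read 2.67 to 3.02 and the wild-type LPS arrays 0.31 to 2.02. The second measurable Irgm1 probe did not give this difference, at 0.48 ± 0.79 (limma adjusted p = 0.639, over probes). On that probe the knockout LPS arrays read 2.36, 2.37, 2.53 and 1.95, and wild-type LPS replicate 3 was above them at 3.43. The Irgm1 call was also lost when the probes of a gene were averaged, with slide as a random block, under normexp, and without wild-type LPS replicate 1 or 4 or any 1 knockout LPS replicate; the number of members called was then 0.

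The other members did not pass after LPS, with differences from -0.83 ± 0.96 for Gbp4 to 1.33 ± 1.28 for Gbp6 and a median of 0.44. Gbp2 differed by 0.48 ± 1.03 (limma adjusted p = 0.728) and Ifi47 by -0.06 (0.953). Gbp6 and Irgm1 were higher in knockout without overlap, as were 28.4% of all genes. Without wild-type saline replicates 1 and 2, which again enter only through the pooled error, Gbp6 (1.33 ± 0.39, limma adjusted p = 0.0132) joined Irgm1, for 2 of 8 beside 27.7% of all genes. Gbp4 and Gbp6 are the members on the chromosome of P2rx7, with their probes 17.6 and 17.4 Mb before the nearest P2rx7 probe (mm9).

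The difference between the LPS responses of the genotypes, knockout minus wild type, tests whether induction differed between them. By limma 0 of 8 members passed, with 0.0105% of all genes called. The fitted differences, which for Gbp4 and Gbp6 rest on saline arrays not well above background, ran from 2.28 to 3.42 with a median of 2.998, the adjusted p from 0.427 to 0.783, and 7 of 8 had an unadjusted p under 0.05 (6.91% of all genes). Without wild-type saline replicates 1 and 2 they ran from 0.01 to 1.24 with a median of 0.90 (limma adjusted p = 0.619 to 0.999), and 0 of 8 passed beside 0.00523% of all genes. In that fit 3 of 8 had an unadjusted p under 0.05, a count that cannot be weighed because its share over all genes was not worked out. A p above the threshold does not show that the responses were equal.

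The authors' deposited table of fold changes lists all 8 members as up after LPS in both genotypes. The folds in the authors' deposited table run from 10.6 for Igtp to 91.9 for Gbp6 in knockout and from 2.18 for Igtp and Irgm1 to 8.59 for Gbp6 in wild type. For Gbp4 and Gbp6 in knockout, the authors' deposited table gives 38.4 and 91.9, where the dim saline arrays allow only the bounds given above. After saline, the authors' deposited table has all 8 lower in knockout, from 2.05-fold for Irgm1 to 15.5-fold for Gbp4. These folds and the wild-type LPS folds lie close to those of the fit with all 16 arrays, which includes wild-type saline replicates 1 and 2. Without those 2 arrays the bound for Gbp4 after saline was at least 1.15-fold lower in knockout. After LPS, the authors' deposited table has Irgm1 up 2.99-fold on the probe used here and 1.40-fold on the other.

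The rest of the family was taken from a list of 16 further GBP and IRG genes, of which 12 were found on the array by name and 8 passed the filter. Among those 8, 6 rose after LPS in knockout, where 2.53% of all genes did. Their median difference over the 8 was 2.72, or 2.53 with Gbp8 at its bound. Gbp5, which activates inflammasome assembly, rose by 4.63 ± 0.96 (limma adjusted p = 0.0115) and Gbp7 by 3.33 ± 0.63 (0.00662). The array lists the Gbp7 probe as Gbp6, but its RefSeq entry is that of Gbp7, so it was not counted as a member. Irgm2, the remaining regulatory IRG, rose by 2.71 ± 0.48 (0.00482), and the giant GTPase Gvin1 by 2.36 ± 0.51 (0.0142). Of the 2 other Gvin1 probes, 1 gave 2.84 ± 0.65 (adjusted over probes, 0.0238) and 1 did not pass, at 1.30 ± 0.40 (0.105). Tgtp1, an effector IRG also called Irgb6, rose by 4.82 ± 0.89 (0.00606) on the probe used and differed by 0.62 ± 0.52 on its other probe (adjusted over probes, 0.622). Gbp8 was at least 4.76-fold higher (fitted 2.74 ± 0.40, limma adjusted p = 0.00206), and its dimmer probe gave 2.20 ± 0.64 (adjusted over probes, 0.0891).

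Gbp9 (1.89 ± 0.58, limma adjusted p = 0.0987) and Irgq (-0.35 ± 0.19, 0.422) did not pass. The other Gbp9 probe gave -0.17 ± 0.41. Gbp2b, Irgc1, Gm12250 and Gm4951 were not well above background on any array, and Gbp10, Gbp11, Tgtp2 and F830016B08Rik were not measured here under those names. In wild type 0 of the 8 were called by limma (0.0105% of all genes in either direction). At an unadjusted p under 0.05 there was 1 of the 8, beside 6.62% of all genes. Without saline replicates 1 and 2, 6 rose (1.93% of all genes). Those arrays were picked out by the high levels of the members, so the last count does not test a rise. In knockout, 7 of the 8 rose without those arrays, where 3.17% of all genes rose, with Gbp9 added (adjusted p by limma 0.000238). The longest run of bases shared between probes of different genes of the family was 10 of 60. Probes were compared with each other and not with the transcripts of relatives. Whether each probe reads only its own gene was therefore not tested.

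**Figure D5:**
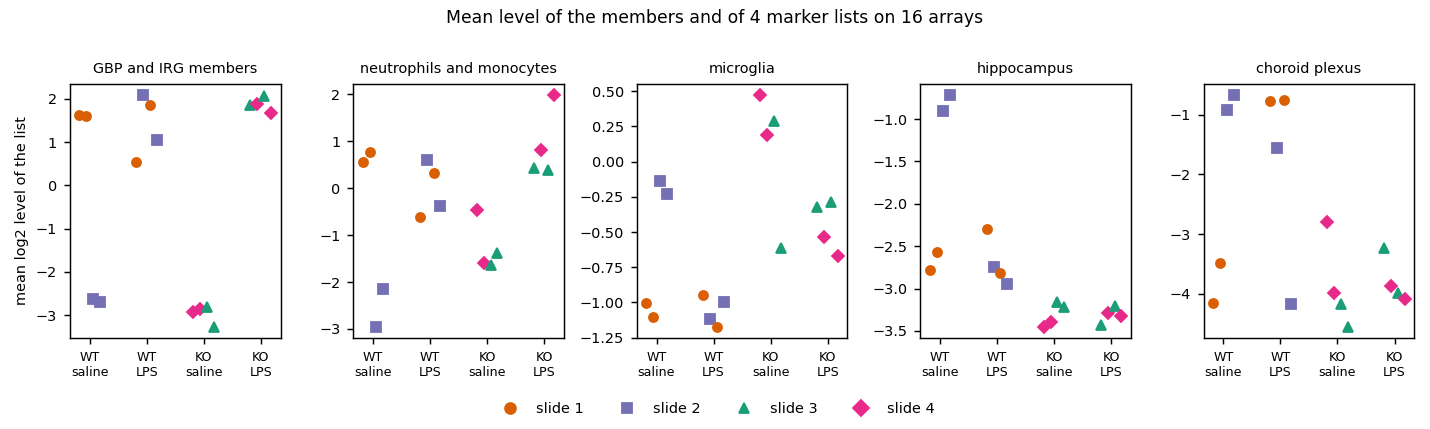
Mean log2 level per array, with that array's 75th percentile at 0, of the members and of the other gene lists, one point for each of the 16 arrays. The members average -3.27 to -2.81 on knockout saline arrays and 1.69 to 2.06 on knockout LPS arrays, while wild-type saline replicates 1 and 2 average 1.63 and 1.61.

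Upstream of the members, no interferon or interferon receptor passed the test for LPS in knockout. Ifng, Ifnb1, Ifna4, Ifne and Ifnk were not well above background on any of the 16 arrays. Of 15 ligands, receptors and inducing cytokines, 8 were tested for LPS in knockout, 0 were called by limma and 0 had an unadjusted p under 0.05. For the unadjusted count the share over all genes is not given here, so that count cannot be weighed. The receptor chains were measured on every array and differed by 0.47 ± 0.38 for Ifngr1, -0.26 ± 0.18 for Ifngr2, -0.17 ± 0.23 for Ifnar1 and -0.07 ± 0.18 for Ifnar2. Between the genotypes, Ifna5 was higher in knockout after saline (1.14 ± 0.30, limma adjusted p = 0.00525) and after LPS (1.03 ± 0.30, 0.0106). Ifna2 was called higher too (0.000201 and 0.00702), from wild-type saline arrays not well above background. Ifna5 was well above background on 1 wild-type saline, 1 wild-type LPS, 3 knockout saline and 1 knockout LPS array. Both genes passed the filter only through knockout saline, so a higher level there was in part built into their selection. Their differences after LPS rest in large part on arrays not well above background. The Ifna5 call after saline was lost without wild-type saline replicates 1 and 2 (0.0567), and the interferon alpha genes are near-identical copies, so which of them these probes read is uncertain.

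Of 14 tested signal transducers and interferon response factors, 5 rose in knockout and 0 fell, with a median difference of 0.61, where 2.53% of all genes rose. Irf7, which amplifies type I interferon production, rose by 3.77 ± 0.76 (limma adjusted p = 0.00998) and Batf2 by 3.25 ± 0.61 (0.00653). Irf1, which drives GBP genes, rose by 2.41 ± 0.42 (0.00408). Irf9 and Stat2, partners in the factor that binds the ISRE, rose by 1.39 ± 0.35 (0.0332) and 1.07 ± 0.25 (0.0213). The other 9 were not called, and the part of the 5 in the rise of the members was not tested.

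Of 6 brakes of the pathway 4 rose in knockout, where 2.53% of all genes rose. Usp18, which blocks the type I receptor, rose by 3.83 ± 0.68 (limma adjusted p = 0.00455), and the JAK inhibitors Socs3 and Socs1 by 3.73 ± 0.62 (0.00316) and 1.70 ± 0.29 (0.00336). The phosphatase gene Ptpn2 rose by 0.71 ± 0.14 (0.00707). In wild type, without saline replicates 1 and 2, 5 of the 14 transducers and 2 of the 6 brakes rose, where 1.93% of all genes rose. Those arrays were picked out by the high levels of the members, which genes such as Usp18 follow closely, so these counts do not test a rise.

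No listed factor that places the GTPases on membranes passed the test for LPS in knockout. Of 12 autophagy conjugation and ubiquitin factors, including Atg5, Atg7 and Gabarapl2, 0 were called by limma in knockout and 0 had an unadjusted p under 0.05, with a median of -0.05. Of 10 other large GTPases of the dynamin type, among them Dnm1, Mfn2 and Opa1, 0 were called and 2 had an unadjusted p under 0.05, with a median of -0.22. Neither unadjusted count can be weighed, because its share over all genes is not given here. Between the genotypes 9 of the 12 autophagy and ubiquitin factors differed after saline (6 higher and 3 lower in knockout) and 9 after LPS (5 higher and 4 lower). Over all genes 50.9% differed between the genotypes after saline and 47.2% after LPS. Genotype cannot be told apart from slide or scan session here.

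Markers of cells that could carry the response were read beside it. The mean over 4 measured neutrophil and monocyte markers ran from -1.64 to -0.46 on knockout saline arrays and from 0.38 to 1.98 on knockout LPS arrays. Of these 4, Plac8 rose by 3.74 ± 0.93 (limma adjusted p = 0.0346), S100a8 (2.68, 0.147) and S100a9 (2.21, 0.186) did not pass, and Ly6c2 differed by 0.04. For Plac8 only 2 of the 4 knockout saline arrays were well above background, so the size of its rise is uncertain. Ccr2 did not pass the filter, and Ly6g was not measured here under that name. On wild-type saline arrays the same mean was 0.56 and 0.76 on replicates 1 and 2 and -2.95 and -2.16 on replicates 3 and 4. The mean over 6 microglial markers ran from -0.61 to 0.47 after saline and from -0.67 to -0.29 after LPS in knockout, and 0 of 6 were called (4 at an unadjusted p under 0.05). Of 8 T and NK cell markers 3 were tested and 0 called (1 at an unadjusted p under 0.05), and Cd3g, Cd8a, Ncr1, Gzma and Prf1 did not pass the filter. Endothelial markers gave 0 of 6 (4 at an unadjusted p under 0.05). The unadjusted counts of these marker lists cannot be weighed, because the share over all genes at that threshold is not given here. Of 6 astrocyte markers 1 was called, Gfap, the astrocyte filament protein, which rose by 1.13 ± 0.29 (limma adjusted p = 0.036). Without wild-type saline replicates 1 and 2 the knockout differences kept their size and the pooled error shrank, so that S100a8 and S100a9 passed as higher and Cx3cr1 (-1.16), Tmem119 (-0.97), Cldn5 (-1.07), Slco1a4 (-2.92) and Tie1 (-1.74) as lower, with Cdh5 (1.30) higher. The part of these markers in the rise of the GTPases was not tested.

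Across the 16 arrays the members kept close company. With each gene centred within genotype, Pearson's r between pairs of members ran from 0.970 to 0.995. This is a description, since the arrays share slides and fall into a low and a high set. The genes outside the members most like their mean by the same measure were Plaur (the urokinase receptor, r = 0.994), Tgtp1 (0.993), the chemokine gene Cxcl10 (0.993), Ifi204 (0.993), Cd274 (which encodes PD-L1, 0.993), Isg15 (0.992), Usp18 (0.992), the acute-phase gene Saa3 (0.992), the chemokine gene Ccl5 (0.991) and Apol9a (0.991). Of 14651 genes with a symbol, 297 reached an r of at least 0.9.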

How the data were processed

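The members and gene lists were chosen with earlier results of these data known. The deposited scanner files give each spot's processed intensity, linear, which per the file headers had its background subtracted and spatial trend removed. Feature Extraction 9.5 (Agilent) produced them, per the submitters' processing notes. The authors also deposited a table of log2 group means and a table of linear fold changes between group means, used only where named; 32 per-sample columns of detection calls in these tables were not used. Control spots were left out and outlier spots set to missing. Probes were named through their RefSeq accession. Levels are log2 processed intensities from which each array's 75th percentile was subtracted. A probe was kept (28345 were) if 3 or more arrays of any group lay well above background, and each gene was represented by its kept probe with the highest mean (19103 genes). In R 4.3.3, with data.table version 1.17.8 and statmod 1.5.0, the lmFit and eBayes functions of limma 3.58.1 fitted 4 group means over 16 arrays, with Benjamini-Hochberg adjustment over genes, or over kept probes where a second probe is given. The pipeline was tested on simulated data. Alternatives covered background correction, scaling, the filter, probe averaging, slide and replicate blocks, single slides and leaving out each array. Members and the family list were named in full; of the pathway lists, genes called for LPS in knockout were named, up to 6 each, and 1 listed gene is not reported here by name. The smallest median absolute log2 difference between any pair of arrays was 0.121, over 20502 probes above background on all, and no array duplicated another.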

Additional observations from a re-analysis of the deposited data

How the results depend on the processing

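The LPS rise in knockout held for 8 of 8 members under every alternative but normexp correction (5) and the filter that required all 16 arrays above background (5 of 5 tested, since Gbp4, Gbp6 and Ifi47 then drop out). Of all genes, 0.979% rose under normexp, and 324 of 14722 under that filter. In wild type the count called was 0 except within slide 2 (7, beside 0.958% of all genes) and without both slide 1 saline arrays (8, beside 1.93%). Within slide 1 the differences turned negative: Gbp2 -0.43, Gbp3 -0.091, Gbp4 -0.53, Gbp6 -0.44, Ifi47 -0.12, Igtp -0.49, Iigp1 -0.74 and Irgm1 -0.49. For knockout against wild type after saline, 6 members called became 3 under normexp, 3 with only the arrays compared, 2 without both slide 1 saline arrays, and 3 to 8 with single replicates left out (3 without wild-type saline replicate 1 or 2, 8 without replicate 4). Of the 19103 genes, 11638 differed under normexp, 7893 with only the arrays compared and 6823 without both arrays. With single replicates left out 8384 to 9751 differed (9117 without wild-type saline replicate 4). Signs turned for Gbp4 (0.014) and Gbp6 (0.088) under normexp and for Gbp6 (1.32) and Irgm1 (0.34) without both arrays. After LPS, 1 member called became 0 under normexp, averaged probes and a random slide block, 2 with only the arrays compared and 2 without both arrays, and 0 to 1 with single replicates left out. Of the 19103 genes, 6438, 9003 and 7693 differed under the first 3 of these settings. With only the arrays compared 10544 differed, without both arrays 9437, and with single replicates left out 7767 to 10640. With single replicates left out the Ifi47 difference ran from -0.322 to 0.139, above 0 without wild-type LPS replicate 2 or 3 or knockout LPS replicate 2. The interaction stayed at 0, and that of Gbp4 turned to -0.325 under normexp. The replicate block gave 8, 0, 6, 1 and 0 members called, in the order knockout LPS, wild-type LPS, saline, LPS and interaction, and changed no call of the counts; same-numbered arrays correlated from -0.38 to 0.34 in their deviations and matched best for 2 of 8, so the numbers name the arrays and do not pair them. Slide as a fixed block gave 8 and 0 for the LPS comparisons. Beyond these cases, the cause of a changed count was not tested. Probes near background (Gbp4, Gbp6, Ifi47) limit what the dim groups can show.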
